A study of Homo sapiens with 18 samples.

Results

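The BCL2 family decides whether a cell keeps the outer membrane of its mitochondria intact or lets it be opened, the step that commits most cells to apoptosis. Described here are 10 of the 60483 gene identifiers in the count tables: the survival genes BCL2, BCL2L1, MCL1 and BCL2A1, the death-promoting BH3-only genes BMF, BCL2L11, BBC3 and PMAIP1, and the effector genes BAX and BAK1. They were chosen by name, with symbols matched to the Ensembl identifiers of the tables, and all 10 passed the filter on low counts that left 16122 genes for testing. RNA sequencing had been run on HAIR-M, a line of human B cells labelled MZL (marginal zone lymphoma). The 6 groups of 3 libraries were cells given the solvent DMSO for 4, 8 or 12 h, and cells given 5 nM copanlisib, an inhibitor of PI3K (phosphoinositide 3-kinase), for the same times. All 18 libraries come from this single line, with no other genotype and no untreated group, and the labels do not say that the 3 replicates of a group were separate cultures. The p-values then reflect only the variation between these libraries.

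BAX and BAK1 are the pore formers of the outer mitochondrial membrane, and the survival proteins hold them and their activators in check. BH3-only proteins carry the signal to die: they bind the survival proteins, and some of them activate BAX and BAK1 directly. In B cells, survival signals from the antigen receptor run in part through PI3K and the kinase AKT, which keeps FOXO transcription factors out of the nucleus, and BCL2L11, BBC3 and BMF are textbook examples of BH3-only genes that FOXO factors can switch on, while BCL2A1 and BCL2L1 are textbook targets of NF-kB.

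Levels are given in CPM, read counts scaled to a common library size with TMM factors, and differences as log2 fold changes, with a standard error (SE), from edgeR's quasi-likelihood test. A gene was said to rise or fall where the Benjamini-Hochberg adjusted p over all 16122 genes was under 0.05. Each library held between 13587017 and 25566761 reads on genes, and a single member had between 29 and 9627 reads in a library. At 4 h, copanlisib replicates 1 and 2 were unlike the rest: 8.73% and 5.22% of their reads were unmapped and 12.4% and 12.6% of their gene reads were mitochondrial, against 1.74% to 2.82% and 9.07% to 10.5% in the other 16 libraries. The 4 h drug effects are therefore also given with replicate 3 as the only copanlisib library at 4 h. That fit takes the spread from the other groups, so its p-values assume that the lone library varies as theirs do. As the labels' extraction protocol speaks of retinas, markers were checked: 5 of 5 B cell markers were tested and summed to between 975 and 1437 CPM per library, whereas GNAT1, RCVRN and CRX had at most 2 reads in any library. The retina marker PDE6B was tested, at 5.63 to 10.4 CPM. CD3D and CD3G had 0 reads, and 3 T cell markers together stayed at or under 0.390 CPM. The summed B cell markers lay at 1064 to 1083 CPM in DMSO and 1395 to 1437 CPM in copanlisib at 12 h, with 5 of 5 higher, and the summed stroma and epithelium markers, mostly COL1A1, lay at 14 to 18.8 and 26.7 to 29.4 CPM. Whether these shifts have a part in the results on the BCL2 family was not tested. Gene positions are those of GENCODE 29 (GRCh38). In RNA from whole cultures, fewer cells that hold a transcript and less of it per cell cannot be told apart.

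Promoter sequence is shown for BMF, the member with the largest rise under copanlisib at each time, beside BCL2L11, the best known FOXO target of the family, whose change did not pass the test at any time. The windows come from RefSeq (GRCh38.p14) and run from 250 bases before to 50 after an annotated start. Of each window, only the bases before the first annotated exon base within that window are printed. The part of the BCL2L11 window printed is chr2:111120664-111120913 on the plus strand, and those of the windows of the 2 BMF starts are chr15:40108893-40109129 and chr15:40106967-40107216 on the minus strand. By the gene positions given below, the printed parts of BCL2L11 and of BMF start 2 lie inside the annotated genes, not upstream of them. Only the part printed for BMF start 1 lies before its gene. The capitals mark the letters GTAAACA, the core that FOXO factors recognise.
BCL2L11: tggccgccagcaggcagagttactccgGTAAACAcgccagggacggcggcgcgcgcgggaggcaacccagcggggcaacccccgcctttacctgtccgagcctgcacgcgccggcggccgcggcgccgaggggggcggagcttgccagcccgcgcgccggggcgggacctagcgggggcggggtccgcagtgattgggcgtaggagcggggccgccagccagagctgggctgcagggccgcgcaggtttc
BMF start 1: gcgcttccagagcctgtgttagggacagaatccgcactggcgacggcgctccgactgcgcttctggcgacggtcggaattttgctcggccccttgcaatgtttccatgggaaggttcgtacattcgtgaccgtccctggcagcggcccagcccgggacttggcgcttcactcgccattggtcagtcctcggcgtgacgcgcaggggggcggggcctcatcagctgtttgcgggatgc
BMF start 2: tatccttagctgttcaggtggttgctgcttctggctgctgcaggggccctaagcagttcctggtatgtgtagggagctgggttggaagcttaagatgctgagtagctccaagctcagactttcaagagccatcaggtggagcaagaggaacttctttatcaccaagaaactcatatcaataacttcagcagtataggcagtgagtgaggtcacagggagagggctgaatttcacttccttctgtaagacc
The FOXO core was found once, in the BCL2L11 window, 223 bases before the start (chr2:111120691-111120697), and 3.42% of the 35116 promoter windows in the RefSeq table held it on either strand. Neither BMF window held it. The table had 11 windows for 9 of the 10 members and none for MCL1. The other motifs searched on both strands were GGGNNTTTCC (NF-kB, in 1.91% of all windows), TGANTCA (AP-1, 7.71%), CACGTG (E-box, 7.26%), TGACGTCA (CRE, 1.85%), TTTCCCGC (E2F, 1.63%) and the p53 decamer (6.63%), and none of them contains another. Of these, the BBC3 window held an AP-1 and an E-box match, the BAX window 4 E-box matches and the BAK1 window a p53 decamer. The windows of BCL2, BCL2L1, BCL2A1, BMF and PMAIP1 held none of the 7. A match is a string of letters and says nothing of binding in these cells.

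Under copanlisib the family did not move as a block. MCL1 and BMF rose and BCL2A1 and PMAIP1 fell at 4, 8 and 12 h. BCL2L1 passed as lower at 4 h only, and BCL2 did not pass the test at any time. At 4 h, 6 of 10 members passed, 2 higher and 4 lower, where 38.4% of all genes tested passed (17.7% higher, 20.7% lower). At 8 h, 5 passed, 3 higher and 2 lower, against 33.1% of all genes (14.8% higher, 18.3% lower), and after 12 h again 5, 3 higher and 2 lower, against 30.3% (13.8% higher, 16.5% lower). The median log2 fold change of the 10 was −0.14, 0.02 and 0.04 at 4, 8 and 12 h (−0.03 at 4 h with replicate 3 alone), and that of all genes 0.01, 0.02 and 0.00. Without regard to sign, the members' median change was 0.25, 0.22 and 0.24, and that of all genes 0.22, 0.19 and 0.18. The copanlisib and DMSO libraries did not overlap in CPM for 5 members after 4 h, 8 after 8 h and 8 after 12 h, which was so for 38.9%, 50.7% and 46.0% of all genes.

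**Figure D1:**
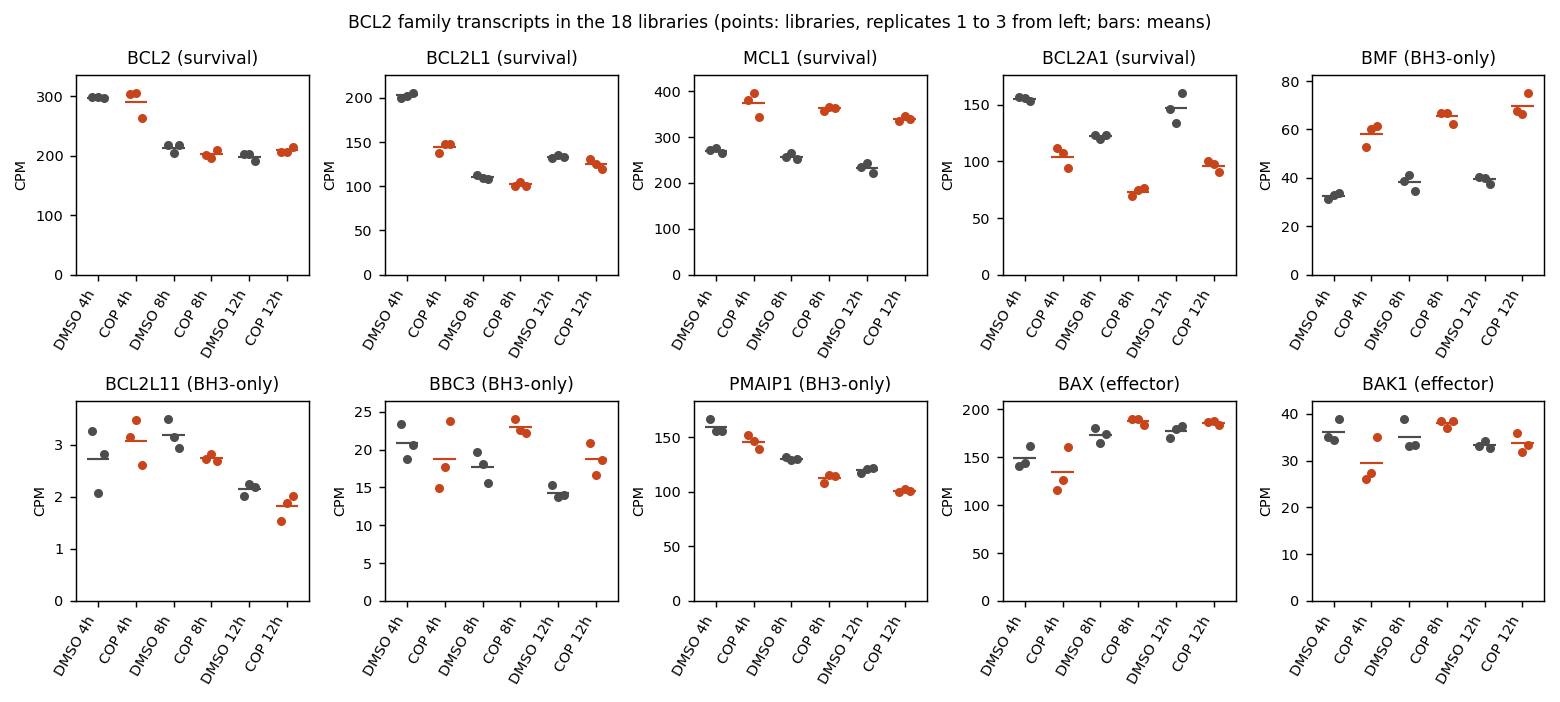
CPM of each of the 10 genes (vertical axes, from 0) in the 18 libraries, 3 per treatment and time (horizontal axis, COP is copanlisib), with points for libraries in replicate order and a bar at the mean. For MCL1 and BMF every copanlisib library lies above every DMSO library, for BCL2A1 below, and for BAX, BAK1 and BBC3 replicates 1 and 2 of copanlisib at 4 h lie under replicate 3.

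MCL1 (chr1:150574551-150579738, minus strand) encodes a short-lived survival protein that B cells depend on. In DMSO it was at 272, 276 and 265 CPM after 4 h, 256, 266 and 251 after 8 h, and 235, 243 and 223 after 12 h. With copanlisib it was at 382, 397 and 343 CPM after 4 h, 357, 366 and 364 after 8 h, and 335, 347 and 339 after 12 h. The 9 copanlisib libraries, 335 to 397 CPM, all lay above the 9 DMSO libraries, 223 to 276 CPM. The rise was 0.47 ± 0.05 on the log2 scale after 4 h (SE, 1.38-fold, edgeR adjusted p = 1.6e-08), 0.49 ± 0.05 after 8 h (1.41-fold, adjusted p = 6.5e-09) and 0.54 ± 0.05 after 12 h (1.46-fold, adjusted p = 1.8e-09). With replicate 3 as the only copanlisib library at 4 h it was 0.34.

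BCL2A1 (chr15:79960889-79971446, minus strand) encodes the survival protein BFL-1, which is expressed mainly in blood cells. In DMSO it stood at 157, 156 and 153 CPM after 4 h, 124, 119.5 and 124 after 8 h, and 146, 134 and 161 after 12 h. With copanlisib it stood at 112, 107 and 93.8 CPM after 4 h, 69.5, 74.5 and 76.2 after 8 h, and 100.1, 97.8 and 90.9 after 12 h. Here the order was the reverse of that of MCL1: all copanlisib libraries, at most 112 CPM, lay under all DMSO libraries, at least 119.5 CPM. The log2 fold change was −0.57 ± 0.06 after 4 h (edgeR adjusted p = 4.7e-08, and −0.73 with replicate 3 alone), −0.74 ± 0.06 after 8 h (adjusted p = 1.1e-09) and −0.61 ± 0.06 after 12 h (adjusted p = 2.6e-08), so that 0.671, 0.601 and 0.655 of the DMSO level was present. Within each treatment the 8 h level was the lowest of the 3 times, and the 4 h and 12 h levels overlapped.

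BCL2L1 (chr20:31664452-31723989, minus strand) encodes the survival protein BCL-xL and, by alternative splicing, the shorter death-promoting BCL-xS, which counts per gene cannot separate. At 4 h it was at 200.2, 203 and 206 CPM in DMSO and at 137, 147 and 148 CPM with copanlisib, groups well apart, which gave −0.49 ± 0.04 on the log2 scale (edgeR adjusted p = 2.0e-09). With replicate 3 alone it was −0.46. At 8 h the DMSO libraries stood at 113, 109 and 108 CPM and the copanlisib libraries at 101, 105 and 100.4, and after 12 h at 132, 135 and 134 against 131, 125 and 119.6. The copanlisib libraries were again all lower, but by −0.11 ± 0.05 after 8 h and −0.09 ± 0.05 after 12 h, which did not pass the test (edgeR adjusted p = 0.068 and 0.13). The 8 h value passed with counts taken without strand (adjusted p = 0.033) and when only the 8 h libraries were fitted (adjusted p = 0.0097). The antisense gene ABALON covers 1424 of the exon bases of BCL2L1, and its part in the value without strand was not tested.

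BCL2, the founding survival gene of the family (chr18:63123346-63320128, minus strand), did not pass the test between treatments at any time. Its 3 DMSO libraries were at 299, 298 and 296 CPM after 4 h, where copanlisib replicates 1, 2 and 3 were at 304, 306 and 264. At 8 h the values were 218, 204 and 218 CPM in DMSO and 201, 196 and 210.2 with copanlisib, and after 12 h 203, 202 and 191 against 207, 207 and 214. The groups overlapped at 4 and 8 h, and after 12 h the copanlisib libraries were all higher by a small margin. The log2 fold changes were −0.03 ± 0.05, −0.08 ± 0.05 and 0.07 ± 0.05 (edgeR adjusted p = 0.64, 0.26 and 0.28). When replicate 3 stood alone for copanlisib at 4 h, BCL2 was lower, at −0.17, and passed (edgeR adjusted p = 0.0087).

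BMF (chr15:40087890-40108892, minus strand) encodes a BH3-only protein that binds survival proteins such as BCL2. It was at 31.1, 33.1 and 33.7 CPM in DMSO at 4 h, 38.7, 41.3 and 34.7 after 8 h, and 40.4, 40.01 and 37.6 after 12 h. With copanlisib it was at 52.7, 60.4 and 61.4 CPM after 4 h, 66.9, 66.7 and 62.4 after 8 h, and 67.7, 66.4 and 75.2 after 12 h. No copanlisib library was under 52.7 CPM and no DMSO library above 41.3. BMF rose by 0.83 ± 0.07 after 4 h (SE, 1.78-fold, edgeR adjusted p = 7.1e-10), 0.77 ± 0.07 after 8 h (1.7-fold, adjusted p = 1.9e-09) and 0.83 ± 0.07 after 12 h (1.77-fold, adjusted p = 7.2e-10), and by 0.91 after 4 h with replicate 3 alone. The antisense gene BMF-AS1 shares 461 exon bases with it, and counts without strand left the call in place at each time.

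Of the other 3 BH3-only members, PMAIP1 fell at each time, BBC3 rose at 8 and 12 h, and BCL2L11 passed the test at no time. PMAIP1 (chr18:59899948-59904306, plus strand) encodes NOXA, a partner of MCL1. It was at 166, 156 and 155 CPM in DMSO and 151, 147 and 139 with copanlisib at 4 h, at 131, 129 and 129.6 against 108, 116 and 114 after 8 h, and at 117, 121 and 122 against 99.3, 103 and 101 after 12 h. The copanlisib libraries were the lower ones at each time, with log2 fold changes of −0.13 ± 0.05, −0.21 ± 0.05 and −0.25 ± 0.05 (edgeR adjusted p = 0.028, 0.00083 and 0.00017). The 4 h call was lost without replicate 1 of DMSO at 4 h (adjusted p = 0.14), without replicate 3 of copanlisib (adjusted p = 0.059), with only the 4 h libraries (adjusted p = 0.12) and with no filter on low counts (adjusted p = 0.14), whereas with replicate 3 alone the value was −0.19 (adjusted p = 0.0062).

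BBC3 (chr19:47220822-47232766, minus strand) encodes PUMA, an activator of BAX and BAK1 best known as a p53 target. At 4 h its DMSO libraries were at 23.4, 18.8 and 20.6 CPM and its copanlisib libraries, replicates 1 to 3, at 14.9, 17.7 and 23.8. At 8 h it was at 19.7, 18 and 15.6 CPM against 24.0, 22.6 and 22.1 with copanlisib, and after 12 h at 15.3, 13.7 and 14 against 20.9, 16.7 and 18.6. The groups overlapped after 4 h and were apart at 8 and 12 h, copanlisib higher. The log2 fold change was −0.15 ± 0.12 after 4 h (edgeR adjusted p = 0.34), 0.35 ± 0.12 after 8 h (adjusted p = 0.020) and 0.39 ± 0.13 after 12 h (adjusted p = 0.019). At 4 h the value was 0.20 with replicate 3 alone (adjusted p = 0.19) and −0.35 without replicate 3 (adjusted p = 0.0021), so that the value turned positive once both other libraries were left out. Over the fits that each left out 1 library it ran from −0.35 to −0.01. The later calls were lost without replicate 2 of DMSO at 8 h (adjusted p = 0.053), replicate 3 of DMSO at 8 h (adjusted p = 0.11) or replicate 1 of copanlisib at 8 h (adjusted p = 0.074), and without replicate 2 of DMSO at 12 h (adjusted p = 0.070), replicate 3 of DMSO at 12 h (adjusted p = 0.067) or replicate 1 of copanlisib at 12 h (adjusted p = 0.12).

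BCL2L11 (chr2:111119378-111168447, plus strand) encodes BIM, an activator that binds every survival protein of the family. It was the scarcest member, with 29 to 75 reads per library. Its CPM were 3.26, 2.07 and 2.83 in DMSO and 3.15, 3.48 and 2.60 with copanlisib at 4 h, 3.49, 3.15 and 2.94 against 2.73, 2.82 and 2.69 after 8 h, and 2.01, 2.25 and 2.18 against 1.54, 1.88 and 2.02 after 12 h. The groups overlapped at 4 and 12 h, and after 8 h the copanlisib libraries were lower. The log2 fold changes of 0.21 ± 0.17, −0.23 ± 0.16 and −0.24 ± 0.20 did not pass (edgeR adjusted p = 0.35, 0.30 and 0.40), and the SE, more than 2 times that of BMF, shows how little these counts resolve. With replicate 3 alone the 4 h value was −0.03. The non-coding gene MIR4435-2HG overlaps 727 of its exon bases on the other strand.

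The effectors BAX and BAK1, which form the pores, did not pass the test at 8 or 12 h. BAX (chr19:48954815-48961798, plus strand) was at 140.4, 144 and 162 CPM in DMSO and 116, 126 and 160.3 with copanlisib at 4 h, at 181, 165 and 174 against 189.6, 189.6 and 183 after 8 h, and at 169.5, 179 and 182 against 187, 187 and 184 after 12 h. Replicate 3 of copanlisib at 4 h lay within the DMSO range and replicates 1 and 2 lay under it. The log2 fold changes of BAX were −0.15 ± 0.07, 0.11 ± 0.07 and 0.07 ± 0.07 (edgeR adjusted p = 0.11, 0.25 and 0.51), and after 4 h 0.11 with replicate 3 alone and −0.30 without replicate 3 (adjusted p = 1.2e-06). BAX also passed at 4 h with no filter on low counts (edgeR adjusted p = 0.045) and at 8 h with only the 8 h libraries in the fit (adjusted p = 0.0059).

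BAK1 (chr6:33572547-33580293, minus strand) stood at 34.9, 34.4 and 38.9 CPM in DMSO and 26.0, 27.4 and 35.0 with copanlisib at 4 h, at 38.8, 33.1 and 33.3 against 38.4, 37.0 and 38.5 after 8 h, and at 33.1, 34.2 and 32.6 against 35.8, 31.8 and 33.4 after 12 h. It passed as lower after 4 h, by −0.29 ± 0.09 (edgeR adjusted p = 0.0081), although its groups overlapped. That call was lost without replicate 1 (adjusted p = 0.054) or replicate 2 (adjusted p = 0.054) of copanlisib at 4 h, and with replicate 3 alone the value was −0.04 (adjusted p = 0.80). It was also lost without replicate 3 of DMSO at 4 h (adjusted p = 0.065) and with only the 4 h libraries in the fit (adjusted p = 0.086). At 8 and 12 h its log2 fold changes were 0.11 ± 0.08 and 0.02 ± 0.09 (edgeR adjusted p = 0.34 and 0.91). BAK1 has 2 processed pseudogene copies, BAK1P1 and BAK1P2, and reads with several mapping places were left uncounted, so its level is uncertain.

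**Figure D2:**
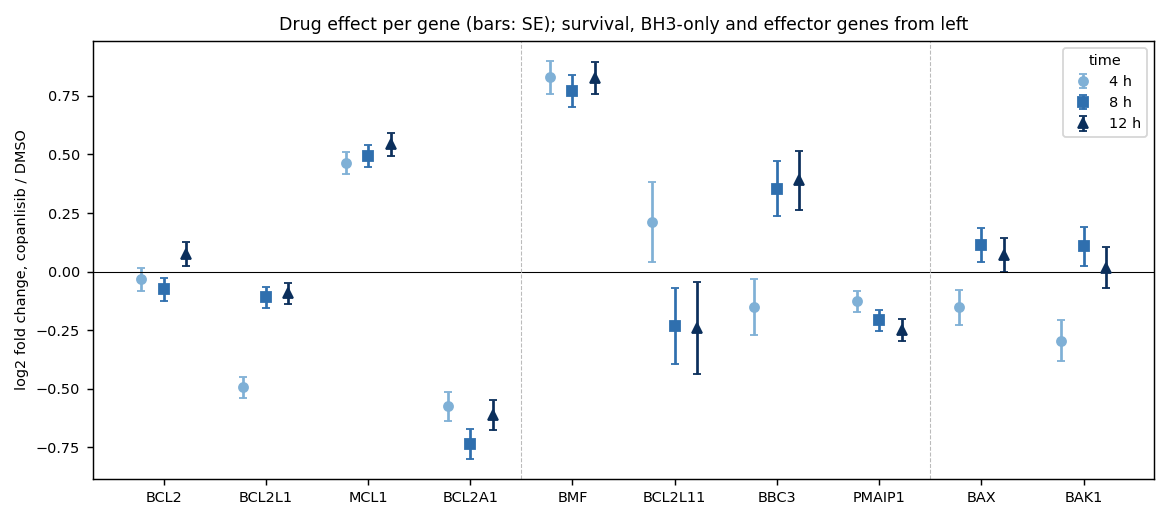
Log2 fold change of copanlisib against DMSO (vertical axis) for the 10 genes (horizontal axis) at 4, 8 and 12 h, with bars for the SE. BMF lies near 0.8 and MCL1 near 0.5 at each time, BCL2A1 between −0.74 and −0.57, and BCL2L1 at −0.49 after 4 h but −0.11 and −0.09 later.

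In the 4 h comparison 2 of the 3 copanlisib libraries stood apart in unmapped and mitochondrial reads, and their part in the 4 h results was tested only by leaving them out. With replicate 3 alone, 6 members passed, as before, 2 higher and 4 lower. BMF and MCL1 rose, and BCL2L1, BCL2A1 and PMAIP1 fell. BCL2 was called lower in that fit and BAK1 was not. The values of BBC3, BAX and BCL2L11 changed sign, from −0.15 to 0.20, from −0.15 to 0.11 and from 0.21 to −0.03, and passed with neither set. Over all genes 3778 passed in that fit, 22.2% of those tested, where 6195 had passed with all libraries.

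**Figure D3:**
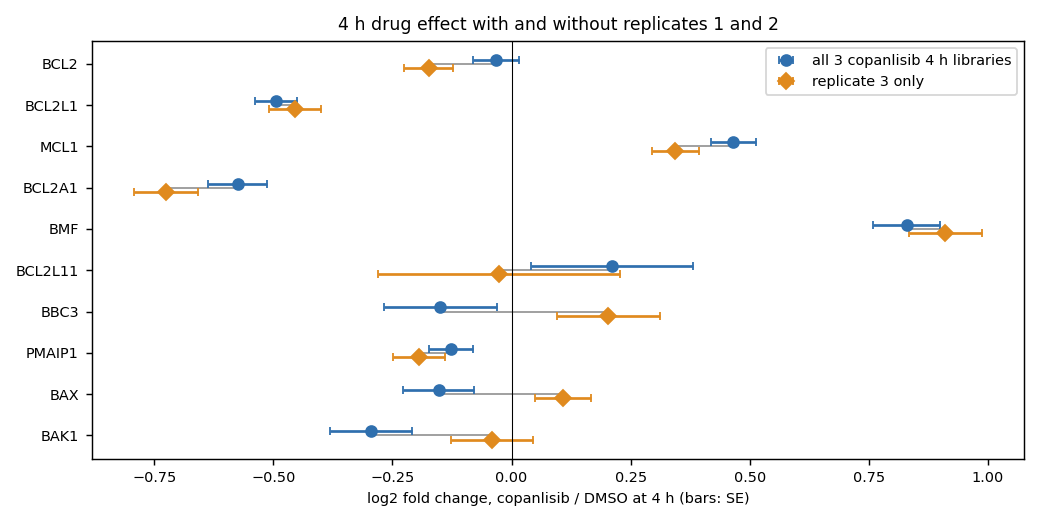
Log2 fold change of copanlisib against DMSO at 4 h (horizontal axis) for each gene (vertical axis), with all 3 copanlisib libraries or with replicate 3 as the only one, and bars for the SE. BMF, MCL1, BCL2L1, BCL2A1 and PMAIP1 keep their side of 0 and pass in both. BBC3, BAX and BCL2L11 cross 0, and BAK1 moves from −0.29 to −0.04.

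Whether the drug effect changed with time was tested as a difference of the effects. From 4 to 8 h, 3 of 10 members passed, all higher, against 19.1% of all genes (9.29% higher, 9.86% lower): BCL2L1 by 0.38 ± 0.06 (SE, edgeR adjusted p = 0.00050), BAK1 by 0.40 ± 0.12 (adjusted p = 0.021) and BBC3 by 0.50 ± 0.17 (adjusted p = 0.035). From 4 to 12 h, which uses the same 4 h libraries, 2 passed against 16.7% of all genes (8.98% higher, 7.69% lower): BCL2L1 by 0.40 ± 0.06 (adjusted p = 0.00017) and BBC3 by 0.54 ± 0.17 (adjusted p = 0.032). For BCL2L1 the gap between treatments narrowed, and levels at 8 and 12 h lay under those at 4 h in both. Mean CPM at 4, 8 and 12 h was 203, 110 and 134 in DMSO and 144, 102 and 125 with copanlisib. When replicate 3 stood alone for copanlisib at 4 h, the BCL2L1 difference was 0.34 and 0.36. For BAK1 (0.14, adjusted p = 0.59) and BBC3 (0.14, adjusted p = 0.70 to 8 h and 0.19, adjusted p = 0.52 to 12 h) the difference did not pass. Leaving out a single library ended the BBC3 calls in 8 of 12 cases each: for 8 h, replicate 1 or 3 of DMSO or 1 or 2 of copanlisib at 4 h, or replicate 2 or 3 of DMSO or 1 or 2 of copanlisib at 8 h (0.36 to 0.51), and for 12 h, the same 4 h libraries or replicate 2 or 3 of DMSO or 1 or 3 of copanlisib at 12 h (0.40 to 0.55). The BAK1 call ended without replicate 3 of DMSO or 1 or 2 of copanlisib at 4 h, or replicate 2 or 3 of DMSO at 8 h (0.32 to 0.37). Without replicate 3 of copanlisib at 4 h, 5 members passed for each difference, BAX among them (0.41 to 8 h and 0.37 to 12 h), where 38.6% and 35.1% of all genes passed in the same fits. BAX also passed to 8 h with no filter on low counts (0.27, edgeR adjusted p = 0.0065). With only the libraries of the groups compared, the calls of BBC3 (adjusted p = 0.079 and 0.069) and BAK1 (adjusted p = 0.059) ended. In the fit to 12 h with replicate 3 alone, BCL2 (0.25, adjusted p = 0.011) and MCL1 (0.20, adjusted p = 0.044) passed. From 8 to 12 h no member passed by edgeR, DESeq2 or limma-voom, and 0.0558% of all genes passed by edgeR (0.0372% higher, 0.0186% lower). Before adjustment, 1 of 10 members, BCL2, had an edgeR p under 0.05 (0.15 ± 0.07), as did 1196 of the 16122 genes. For BMF the difference was −0.06 ± 0.10 from 4 to 8 h and 0.06 ± 0.10 from 8 to 12 h, and for BCL2A1 −0.16 ± 0.09 and 0.12 ± 0.09.

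The members also moved with time in culture when no drug was present. In DMSO from 4 to 12 h, 7 of 10 passed, 2 higher and 5 lower, against 48.6% of all genes (23.2% higher, 25.4% lower). BCL2 and BCL2L1 lost the most, by −0.58 ± 0.05 and −0.60 ± 0.04 on the log2 scale (edgeR adjusted p = 3.5e-10 and 2.8e-11). BBC3 fell by 0.54 ± 0.12 (adjusted p = 0.00083), PMAIP1 by 0.41 ± 0.05 (adjusted p = 4.6e-08) and MCL1 by 0.21 ± 0.05 (adjusted p = 0.00055). BMF rose by 0.27 ± 0.07 (adjusted p = 0.0036) and BAX by 0.25 ± 0.07 (adjusted p = 0.0069), and BCL2A1 (−0.08 ± 0.06), BCL2L11 (−0.31 ± 0.19) and BAK1 (−0.12 ± 0.09) did not pass, although BCL2L11 did without replicate 2 of DMSO at 4 h (−0.48, edgeR adjusted p = 0.044). The 4 h and 12 h libraries did not overlap for 8 members in DMSO, where 57.8% of all genes had such groups.

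With copanlisib, 7 of 10 also passed from 4 to 12 h, 2 higher and 5 lower, against 51.9% of all genes (25.6% higher, 26.3% lower), and 6 had groups that did not overlap, against 51.5%. BAX and BMF rose, by 0.47 ± 0.07 and 0.26 ± 0.07 (edgeR adjusted p = 6.6e-06 and 0.0014), and BCL2 (−0.48 ± 0.05), PMAIP1 (−0.53 ± 0.05), BCL2L1 (−0.20 ± 0.05), MCL1 (−0.14 ± 0.05) and BCL2L11 (−0.77 ± 0.18) fell. BBC3 was at 0.00 ± 0.12 (adjusted p = 0.99), BCL2A1 at −0.12 ± 0.06 and BAK1 at 0.20 ± 0.09. With replicate 3 as the only 4 h copanlisib library, BBC3 passed as lower at −0.33 (adjusted p = 0.012), BAX was at 0.22 (adjusted p = 0.0021), and MCL1 (−0.00, adjusted p = 0.96) and BCL2L11 (−0.51, adjusted p = 0.13) no longer passed. The MCL1 call also ended with no filter on low counts (edgeR adjusted p = 0.088), with only the groups compared in the fit (adjusted p = 0.13), and without replicate 2 of copanlisib at 4 h (−0.09, edgeR adjusted p = 0.13) or replicate 1 of copanlisib at 12 h (−0.13, adjusted p = 0.055). Without replicate 3 of copanlisib at 4 h, BCL2A1 (−0.19) and BAK1 (0.34) passed, where 56.3% of all genes passed. BAK1 also passed without replicate 2 of copanlisib at 12 h (0.23), with no filter (0.22, edgeR adjusted p = 0.018), by limma-voom (0.21, adjusted p = 0.044) and with counts taken without strand (0.27, adjusted p = 0.020).

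**Figure D4:**
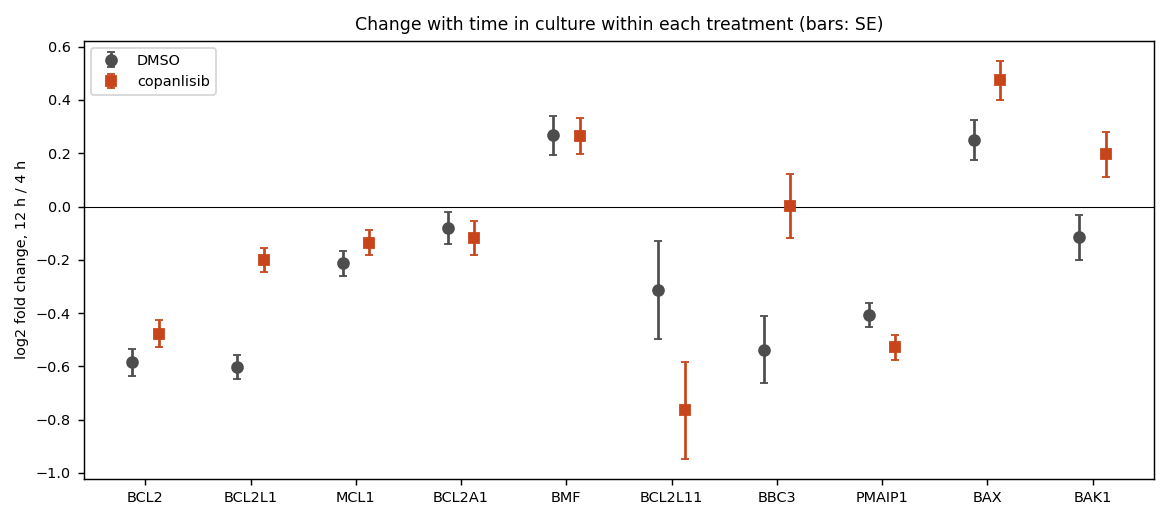
Log2 fold change from 4 to 12 h (vertical axis) of the 10 genes (horizontal axis) within DMSO and within copanlisib, with bars for the SE. BCL2L1 changes by −0.60 in DMSO and −0.20 with copanlisib, BBC3 by −0.54 and 0.00, and BMF by nearly the same amount in both, 0.27 and 0.26.

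Ranked by group means, BCL2L1 went from DMSO at 4 h, the highest, through copanlisib at 4 h, DMSO and copanlisib at 12 h and DMSO at 8 h to copanlisib at 8 h, and no neighbours in that order overlapped. PMAIP1 also had no overlapping neighbours, from DMSO at 4 h through copanlisib at 4 h, DMSO at 8 and 12 h and copanlisib at 8 h to copanlisib at 12 h. For MCL1, copanlisib at 4 and 8 h overlapped, as did DMSO at 4 and 8 h. For BMF, the 8 and 12 h groups of the same treatment overlapped. For BCL2 the 4 h groups overlapped each other and stood above the rest, and for BBC3 only DMSO at 12 h, the lowest, was apart from its neighbour. All neighbours overlapped for BCL2L11 and for BAK1. For BAX, the 8 and 12 h groups of the same treatment overlapped at the top, copanlisib above DMSO, and so did the 4 h groups at the bottom.

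To compare genes with each other, CPM were divided by the union length of each gene's exons in kb (GENCODE 29), which treats all isoforms as 1 length. On this scale BCL2A1 was the most abundant member in DMSO at 4 h, at 143 ± 1.77 CPM per kb (SD, n = 3), before PMAIP1 at 71.2 ± 2.82, MCL1 at 62.0 ± 1.30, BCL2L1 at 61.2 ± 0.857 and BAX at 57.5 ± 4.41. BCL2 was at 25.3 ± 0.129, BAK1 at 16.3 ± 1.11, BBC3 at 6.58 ± 0.724, BMF at 5.99 ± 0.252 and BCL2L11 at 0.408 ± 0.0904. BCL2 had higher CPM than BCL2L1 in every group but a lower value per kb, as its exons span 11765 bases against 3314.

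Among the 4 survival transcripts per length, MCL1 made up 21.3 ± 0.287% in DMSO and 34.3 ± 0.584% with copanlisib at 4 h (SD, n = 3), 26.5 ± 0.896% and 41.8 ± 0.505% after 8 h, and 21.8 ± 1.79% and 35.1 ± 1.07% after 12 h. BCL2A1 went the other way, from 49.0 ± 0.296% to 38.3 ± 1.38%, from 50.5 ± 0.724% to 34.0 ± 0.840% and from 54.9 ± 2.96% to 39.8 ± 0.987%. At 8 h with copanlisib MCL1 was therefore the leading survival transcript, at 82.9 ± 1.06 CPM per kb, before BCL2A1 at 67.4 ± 3.23, and in the other 5 groups BCL2A1 led. The shares of BCL2 stayed between 6.89% and 9.91% and those of BCL2L1 between 14.9% and 21.0%. Summed, the 4 survival transcripts lay at 291 ± 2.28 and 249.6 ± 15.7 CPM per kb in DMSO and copanlisib at 4 h, 223 ± 2.01 and 198 ± 4.74 after 8 h, and 246 ± 9.38 and 222 ± 5.62 after 12 h. On this scale each copanlisib group lay under its DMSO group. That order depends on the division by length, which weights BCL2A1 (1089 exon bases) far more than BCL2 (11765). With CPM not divided by length, the summed group means were higher with copanlisib at 8 and 12 h. In replicate 3 of copanlisib at 4 h alone, MCL1 made up 33.9% and BCL2A1 37.2% of a sum of 232 CPM per kb.

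Among the 4 BH3-only transcripts PMAIP1 held most of the sum, 84.6 ± 0.440% in DMSO and 79.2 ± 2.81% with copanlisib at 4 h, 81.7 ± 1.33% and 71.9 ± 1.40% after 8 h, and 81.7 ± 0.892% and 70.4 ± 1.55% after 12 h. BMF held 7.12 ± 0.560% and 13 ± 1.14% after 4 h, 9.84 ± 0.735% and 17.2 ± 0.798% after 8 h, and 11 ± 0.512% and 19.95 ± 1.12% after 12 h. BBC3 held between 6.86% and 10.3% and BCL2L11 less than 0.7% in each group. The sum of the 4 was at 84.2 ± 3.31 and 82.2 ± 0.873 CPM per kb after 4 h, 71.3 ± 1.45 and 70.0 ± 1.54 after 8 h, and 65.7 ± 0.791 and 64.2 ± 0.751 after 12 h, in each case DMSO first. This order too depends on the scale: with CPM not divided by length, the summed group means were higher with copanlisib at each time. At 8 h, for example, BMF went from 7.02 ± 0.609 to 12.0 ± 0.471 CPM per kb and PMAIP1 from 58.2 ± 0.540 to 50.4 ± 1.91. In replicate 3 of copanlisib at 4 h alone, BMF held 13.9% and PMAIP1 76.4%. These shares and sums describe RNA and were not tested.

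**Figure D5:**
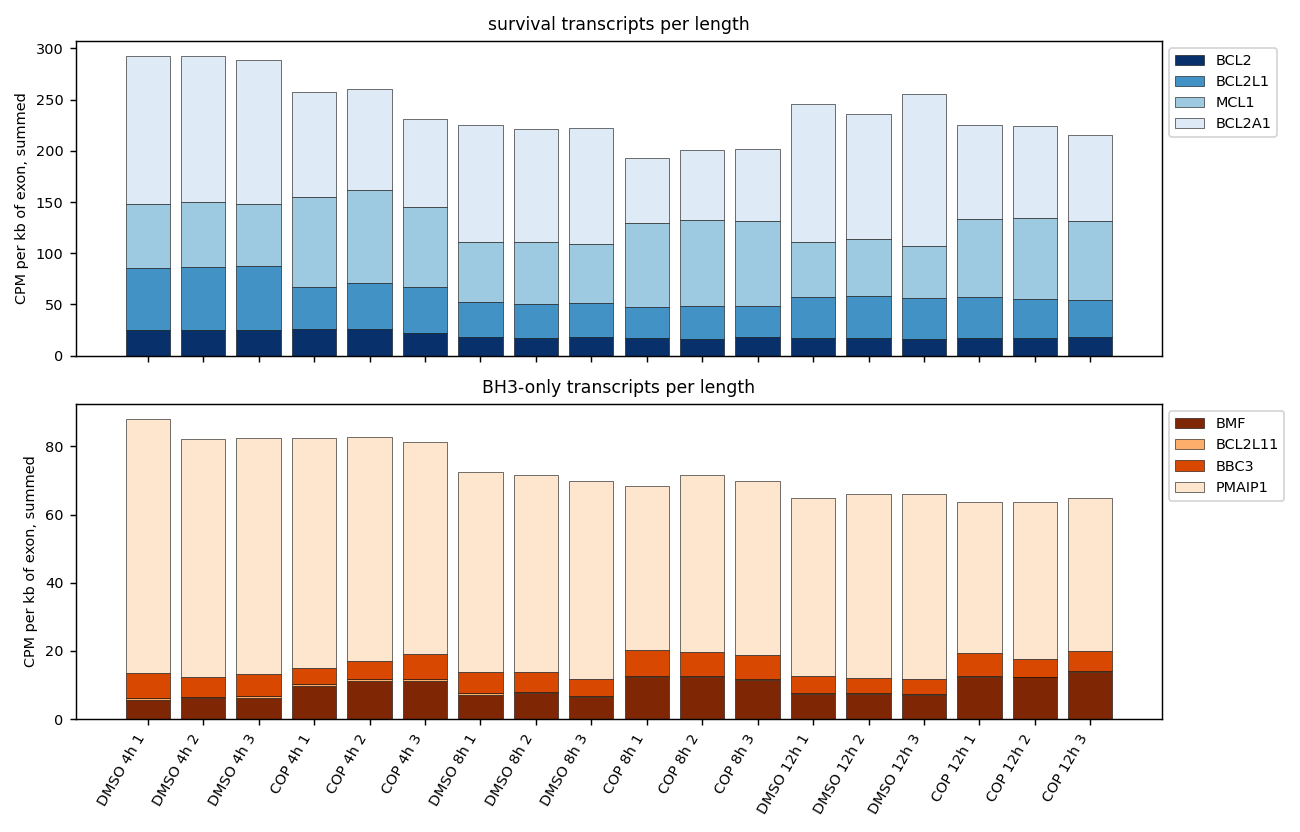
Summed CPM per kb of exon (vertical axes, from 0) of the 4 survival transcripts (top) and the 4 BH3-only transcripts (bottom), stacked by gene, in the 18 libraries (horizontal axis, COP is copanlisib, numbers are replicates). MCL1 widens and BCL2A1 narrows in each copanlisib library against DMSO of the same time. BMF widens within a sum of these 4 BH3-only transcripts that differs little between treatments.

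The rest of the death pathway was read from gene lists. Their counts are to be set beside the 38.4%, 33.1% and 30.3% of all genes that passed at 4, 8 and 12 h. Counts with replicate 3 alone come from a fit in which a smaller share of all genes passed. Of 13 other BCL2 family genes 11 were tested (BOK and HRK had 1 and 2 reads in all libraries together), and 1 rose and 4 fell after 4 h, 1 rose and 0 fell after 8 h, and 0 rose and 1 fell after 12 h, with medians of 0.00, 0.04 and −0.01. With replicate 3 alone at 4 h, 0 rose and 0 fell by edgeR and the median was −0.07. BID, a BH3-only protein cut by caspase-8, was lower by −0.22 after 4 h (edgeR adjusted p = 0.0046) and −0.31 ± 0.06 after 12 h (adjusted p = 0.00026), and at −0.15 after 8 h (adjusted p = 0.051). BAD, a BH3-only protein that AKT phosphorylates, was lower by −0.44 ± 0.10 after 4 h (adjusted p = 0.00071) and did not pass after 8 h (0.21, adjusted p = 0.090) or 12 h (0.17, adjusted p = 0.20). With replicate 3 alone after 4 h, BID was at −0.14 (adjusted p = 0.19) and BAD at −0.14 (adjusted p = 0.28). The 4 h call of BID was also lost with only the 4 h libraries (adjusted p = 0.056). At 8 h, BID passed without replicate 2 of copanlisib (−0.21, edgeR adjusted p = 0.020), by limma-voom (adjusted p = 0.044) and with only the 8 h libraries (adjusted p = 0.0057). BAD passed at 8 h without replicate 1 of DMSO (0.30, edgeR adjusted p = 0.043), with no filter (adjusted p = 0.016) and with only the 8 h libraries (adjusted p = 0.0032), and at 12 h with only the 12 h libraries (adjusted p = 0.013). BCL2L15, at 6 to 33 reads per library, passed only in the 8 h comparison (0.98 ± 0.31, edgeR adjusted p = 0.015), but not without replicate 2 of DMSO (0.79, adjusted p = 0.091) or replicate 3 of copanlisib (0.80, adjusted p = 0.091) at 8 h.

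Outside the family, all 20 genes of a list that holds the apoptosome, the caspases, their inhibitors and the death receptors, acting before or after the mitochondria, were tested. Of these 6 rose and 6 fell after 4 h (5 and 5 with replicate 3 alone), 6 and 5 after 8 h, and 3 and 5 after 12 h, with medians of 0.02, −0.02 and −0.00 (−0.07 at 4 h with replicate 3 alone). BIRC3, an inhibitor of apoptosis and an NF-kB target, was at 354 ± 19.3 CPM in DMSO and 211 ± 21.2 with copanlisib at 4 h (SD, n = 3), and fell by 0.75 ± 0.05 (SE, edgeR adjusted p = 3.6e-11; by 0.89 with replicate 3 alone), then by 0.53 after 8 h and 0.55 after 12 h. CYCS, the cytochrome c that leaves through BAX and BAK1 pores, fell by 0.32 (by 0.45 with replicate 3 alone), 0.62 and 0.47, after 8 h from 336 ± 7.38 to 218 ± 6.25 CPM (adjusted p = 1.1e-10). CASP10, an initiator caspase of death receptors, rose by 0.59 ± 0.06 (0.48 with replicate 3 alone), 0.24 and 0.19, and the 12 h call was lost without replicate 1 of DMSO or replicate 1 or 2 of copanlisib at 12 h.

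Among 20 known regulators of the members, 19 were tested (BCL6 had 47 reads in all), and 6 rose and 8 fell after 4 h (4 and 6 with replicate 3 alone), 3 and 6 after 8 h, and 3 and 8 after 12 h, with medians of −0.13, −0.08 and −0.10 (−0.06 at 4 h with replicate 3 alone). MYC, a growth-promoting transcription factor, fell by 0.70, 0.69 and 0.60, after 4 h from 235 ± 6.82 to 145 ± 2.69 CPM. NFKB1, the p50 subunit of NF-kB, fell by 0.49, 0.40 and 0.24. ATF4, the stress factor that can induce PMAIP1, fell by 0.38 after 4 h and 0.38 after 12 h and was at −0.02 after 8 h (edgeR adjusted p = 0.72). With replicate 3 alone, MYC, NFKB1 and ATF4 were at −0.66, −0.49 and −0.37 at 4 h.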

How the data were processed

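The authors deposited raw counts of reads per gene, without normalization, as 1 table for each of the 18 RNA sequencing libraries. The submitters' processing notes name CASAVA 1.7, STAR 2.5.2b and the build hg38, with an annotation version not given in the sources used here. Although the kit named in the labels' protocols does not mark strand, 1 strand column held 94.3% to 95.3% of the stranded reads, and the tests used that column. The 4 summary lines of each table entered neither totals nor tests. They held, by library, unmapped reads (1.74% to 8.73%), reads with several mapping places (9.21% to 10.1%), reads outside genes (10.0% to 13.0%) and ambiguous reads (2.04% to 2.45%). A table of gene names matched 56321 identifiers, GENCODE 29 another 432, and 3730 had no name. All 83 list entries matched.

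TMM scaling and filterByExpr by group left 16122 of the 35239 genes with a read. With edgeR 4.0.16 in R 4.3.3, glmQLFit modelled a mean for each group over the 18 libraries, and glmQLFTest gave p-values for both directions, which were Benjamini-Hochberg adjusted across the 16122 genes. The common biological coefficient of variation was 0.0500. The SE is the log2 fold change over the square root of F. Replicates differed by more than sampling noise (a chi-square of 1 per gene): replicates 1 and 2 of copanlisib at 4 h had 22.1 and 17.5 against replicate 3, and the other pairs 1.56 to 3.14. Alternatives were size factors of DESeq2 in edgeR, no filter, DESeq2 1.42.0, limma-voom 3.58.1, unstranded counts, a replicate block, a fit of only the groups compared, an adjusted p under 0.01, each library left out, and replicate 3 as the single copanlisib library at 4 h. For the genes of the other lists, the same alternatives were added after seeing the data.

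The members and lists were chosen with earlier results of these data known. By rule, all 10 members are named, and from each other list at most the 3 genes with the smallest p over the drug comparisons, plus genes with no reads. BOK, HRK, BCL6, GNAT1, RCVRN, CRX, PDE6B and COL1A1 were named outside this rule, after their values were seen. Some genes are not reported here.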

Additional observations from a re-analysis of the deposited data

Results flagged for a closer look

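Some drug effects differed between times, by a test of the difference itself. The difference passed for 3 of the 10 genes at 8 h against 4 h, where 19.1% of all genes passed. Between 12 h and 4 h it passed for 2 of the 10, against 16.7% of all genes. For BCL2L1 the log2 effect of copanlisib was higher at 8 h than at 4 h by 0.38 ± 0.06 and at 12 h than at 4 h by 0.40 ± 0.06 (SE, edgeR adjusted p = 0.00050 and 0.00017). For BBC3 it was higher by 0.50 ± 0.17 at 8 h and 0.54 ± 0.17 at 12 h (adjusted p = 0.035 and 0.032), and for BAK1 by 0.40 ± 0.12 at 8 h (adjusted p = 0.021). These differences share the 4 h libraries, 2 of which stood apart in unmapped and mitochondrial reads. Leaving out 1 library ended the BBC3 calls in 8 of 12 fits each and the BAK1 call in 5 of 12. With replicate 3 as the only copanlisib library at 4 h, BCL2L1 passed at 0.34 and 0.36, and BBC3 (0.14 and 0.19) and BAK1 (0.14) did not.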

How the results depend on the processing

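Over the members and named genes, 1725 values were recomputed under the alternatives: 1630 kept their side of the threshold (1588 with the same sign, and 42, none of them called, with the other sign), 65 lost and 29 gained a call, and 1 changed sign with a call, BBC3 from 4 to 12 h with copanlisib, at −0.33 with replicate 3 as the only 4 h copanlisib library. The rises of MCL1 and BMF and the fall of BCL2A1 at each time, and that of BCL2L1 at 4 h and of PMAIP1 at 8 and 12 h, passed under every alternative run. The 3 members whose effect differed between 8 and 4 h became 1 with only the libraries of the groups compared and 1 at an adjusted p under 0.01. The share of all genes went from 19.1% to 10.9% and 6.59% in the same fits. For 12 h against 4 h, the 2 members became 1 and 1 under these settings, and the share of all genes went from 16.7% to 10.9% and 7.03%. Without replicate 3 of copanlisib at 4 h, 5 members passed for each of these differences, against 38.6% and 35.1% of all genes. Leaving out 1 library at a time gave 1 to 5 members for each, against 10.0% to 38.6% and 9.71% to 35.1% of all genes. It gave 5 to 7 members at 4 h (29.8% to 47.7% of all genes in the same fits), 4 to 5 at 8 h (26.2% to 27.4%), 4 to 5 at 12 h (23.7% to 25.1%), 7 to 8 over time in DMSO (42.1% to 43.7%) and 6 to 9 over time with copanlisib (45.0% to 56.3%).

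Of all genes, 6195 passed at 4 h, 3733 with only the 4 h libraries and 3778 with replicate 3 alone. For the effect at 8 h minus 4 h, 3086 became 1746 with only the libraries of the groups compared, 1062 at 0.01 and 409 with replicate 3 alone (1650 to 6353 with 1 library left out). For 12 h minus 4 h, 2688 became 1719, 1134 and 900 (1596 to 5781). For 12 h minus 8 h, 9 became 35 with no filter, 26 by DESeq2, 5 without strand, 273 with only the libraries of the groups compared and 0 at 0.01 (0 to 5 with 1 library left out).

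The replicate number as a block left all 80 calls of the members in place. Member counts for the drug at 4, 8 and 12 h were 6, 5 and 5, against 38.5%, 32.9% and 30.3% of all genes. The differences from 4 to 8 h, 8 to 12 h and 4 to 12 h had 3, 0 and 2, against 19.6%, 0.062% and 17.1%. The changes over time in DMSO and with copanlisib had 7 and 7, against 48.8% and 51.9%. The labels give no pairing, and 45 pairs of libraries with the same number had correlations of their deviations of −0.35 to 0.40 (median 0.0080, against 0.011 for other numbers), with 7 of 18 libraries nearest to their own number. Low depth limits BCL2L11 and BCL2L15, at 29 to 75 and 6 to 33 reads per library.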

Other observations

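The genes whose log2 CPM followed a member most closely over the 18 libraries were sought among 9530 well-expressed protein-coding genes, as a description, since libraries of a group share treatment and time. For BMF they included NUAK2 (Pearson r = 0.97) and IRF1 (0.96). NUAK2, a kinase of the AMPK-related family, was higher with copanlisib by 0.68, 0.67 and 0.96 on the log2 scale at 4, 8 and 12 h. IRF1 was higher by less, 0.17, 0.21 and 0.23. For MCL1 they were UBE2H, HBP1 and CDKN1B (0.97 each), and CDKN1B, the cell cycle inhibitor p27, was higher by 0.51, 0.41 and 0.45. For BCL2A1 they were IVNS1ABP, KPNA2 and TPM4 (0.98 each), of which KPNA2, a nuclear import receptor, was lower by −0.26, −0.32 and −0.20.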
